A study of Homo sapiens with 16 samples.

Results

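The DNA repair and checkpoint genes are 48 genes that keep chromosomes intact, and their transcripts were followed in 2 human multiple myeloma cell lines. They were taken by symbol from a table of 23354 genes. Of the 48, 47 were found under the listed symbol, and MRE11A was found under its newer symbol MRE11. All 48 were kept by the filter on low counts, which left 14215 genes to test. By role they are 14 homologous recombination genes (BRCA1, BRCA2, BARD1, PALB2, RAD51AP1, RAD51C, RAD51D, RAD54L, RAD54B, XRCC2, XRCC3, BLM, RMI1, RMI2), 11 Fanconi anaemia genes (FANCA, FANCB, FANCC, FANCD2, FANCE, FANCF, FANCG, FANCI, FANCL, FANCM, BRIP1), 3 mismatch repair genes (EXO1, MSH6, PMS2), 5 end joining genes (XRCC4, XRCC5, XRCC6, PRKDC, LIG4), 6 checkpoint genes (ATM, ATR, ATRIP, TOPBP1, CHEK1, CHEK2), 6 genes of break sensing and resection (MDC1, NBN, MRE11, RAD50, RBBP8, TP53BP1) and 3 genes of base excision and single-strand break repair (XRCC1, UNG, PARP1).

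MM1S is a line that responds to glucocorticoids, and MM1R is its resistant derivative. Each line was cultured with vehicle (Veh), with 0.1 μM TAK-981, an inhibitor of the SUMO activating enzyme, with 1 μM dexamethasone (Dex), or with both agents at those doses (combo), for 48 h. The vehicle and its duration are not named in the labels. There were 2 libraries in each of the 8 groups, 16 in all, and nothing in the labels says that the duplicates came from separate cultures. The p-values use 1 estimate of the spread per gene, shared by all 8 groups. That spread is between these libraries and may be technical. A difference between the lines is a difference between these 2 lines only.

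The libraries held 15707587 to 24796539 counted reads. All 8 plasma cell markers were detected in every group (summed level 3370 to 6135 CPM, the read count scaled to the TMM-adjusted library size). The markers of T cells, monocytes, stromal and erythroid cells summed to at most 12.4 CPM for each type. NR3C1, the glucocorticoid receptor gene, stood at 239 to 357 CPM in MM1S and at 16.7 to 20.5 CPM in MM1R.

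A double-strand break can be rejoined end to end, by Ku, DNA-PKcs, XRCC4 and ligase IV, at any stage of the cell cycle, or copied from the sister chromatid by homologous recombination, which needs a replicated chromosome. The Fanconi anaemia proteins recognise and unhook interstrand crosslinks and hand the resulting break to recombination, whereas mismatch repair corrects errors left by DNA polymerases. Many recombination, Fanconi and checkpoint genes are transcribed mainly in late G1 and S phase, where E2F factors act on their promoters, so their transcript level in a culture also depends on how many cells are cycling. In bulk RNA fewer cells in S phase and less transcript per cell cannot be told apart.

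Promoters of members were read from RefSeq (GRCh38.p14, 250 bases before to 50 after each annotated start, 42 of the 48 members matched) and searched on both strands. The E2F-type words were TTTCCCGC, TTTGGCGC, TTTCGCGC, TTTGCCGC, TTTGGCGG and TTTCCCGG. At least 1 of them was present for 14 of 42 members (33.3%), against 8.5% of all genes of the count table that had a promoter. These words occurred for 2 of 12 homologous recombination genes (16.7%), 3 of 10 Fanconi genes (30%), 3 of 3 mismatch repair genes and 1 of 3 end joining genes, and none of the 5 promoter windows of LIG4 held one. The CHR word TTTGAA, which marks many G2 and mitotic genes, was present for 6 of 42 members (14.3%) against 15.8% of all such genes, and the word CCAAT for 25 of 42 (59.5%) against 41.9%. The NRF1 word was present for 1 of 42 members (2.4%) against 2.0%. No word of one motif contains a word of another.

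Stretches from 200 bases before to 30 after the start are shown for the 3 mismatch repair genes, which all carry an E2F-type word and differ in their response, for UNG and XRCC2, which fell far, and for LIG4, the ligase of end joining, which rose. Capitals mark the E2F-type word, read on the gene's strand except in XRCC2, where its reverse complement is printed. The 6 genes shown were chosen after their values were seen. Where a gene had several annotated starts, the stretch with the most E2F-type words was printed, or the first listed if they were equal. EXO1, UNG and PMS2 had 2 starts each, MSH6 had 4 and LIG4 had 5. The other windows of EXO1, MSH6 and UNG held no such word. With TAK-981 in MM1S an E2F-type word was present for 11 of 33 members called lower that had a promoter (33.3%), for 3 of 7 not called (42.9%) and for 0 of 2 called higher. The stretches are chr1:241848004-241848233 (plus strand), chr2:47782945-47783174 (plus), chr7:6009077-6009306 (minus), chr12:109097972-109098201 (plus), chr7:152676112-152676341 (minus) and chr13:108218320-108218549 (minus).
EXO1: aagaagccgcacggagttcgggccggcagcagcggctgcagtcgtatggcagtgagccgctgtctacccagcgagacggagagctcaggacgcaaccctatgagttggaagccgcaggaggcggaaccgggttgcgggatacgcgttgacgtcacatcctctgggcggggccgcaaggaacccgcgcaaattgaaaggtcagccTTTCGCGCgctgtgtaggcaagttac
MSH6: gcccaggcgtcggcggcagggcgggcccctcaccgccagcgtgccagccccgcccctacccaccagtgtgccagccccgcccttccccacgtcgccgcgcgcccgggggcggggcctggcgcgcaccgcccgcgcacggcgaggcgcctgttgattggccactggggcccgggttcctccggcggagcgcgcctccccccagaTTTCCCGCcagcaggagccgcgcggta
PMS2: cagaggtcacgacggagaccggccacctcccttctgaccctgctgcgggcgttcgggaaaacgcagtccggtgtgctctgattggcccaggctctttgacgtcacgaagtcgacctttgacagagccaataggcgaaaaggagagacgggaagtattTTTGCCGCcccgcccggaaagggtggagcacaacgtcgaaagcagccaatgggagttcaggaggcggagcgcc
UNG: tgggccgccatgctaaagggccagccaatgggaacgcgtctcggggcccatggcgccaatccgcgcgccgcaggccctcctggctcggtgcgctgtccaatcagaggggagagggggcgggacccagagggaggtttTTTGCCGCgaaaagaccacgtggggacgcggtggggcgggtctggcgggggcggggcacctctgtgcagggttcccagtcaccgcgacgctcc
XRCC2: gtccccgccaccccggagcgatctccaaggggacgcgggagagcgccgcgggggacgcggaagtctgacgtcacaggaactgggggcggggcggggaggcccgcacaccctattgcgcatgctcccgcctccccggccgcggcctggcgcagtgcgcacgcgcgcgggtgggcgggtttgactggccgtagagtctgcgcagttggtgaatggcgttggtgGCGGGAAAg
LIG4: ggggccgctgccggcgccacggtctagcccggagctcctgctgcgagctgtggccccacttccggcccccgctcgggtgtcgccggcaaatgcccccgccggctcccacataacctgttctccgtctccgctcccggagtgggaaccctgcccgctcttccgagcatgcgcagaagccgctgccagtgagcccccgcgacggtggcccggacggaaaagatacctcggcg
The word began 5 bases into the transcript in EXO1 and 4 bases into it in MSH6, and 43 and 63 bases before the start in PMS2 and UNG, and in XRCC2 22 bases into the transcript. A match is a description of the letters and not a tested binding site.

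In untreated MM1S the members spanned a wide range of levels, compared per kilobase of the length given in the count table. PARP1, the poly(ADP-ribose) polymerase that senses single-strand breaks, was highest at 220.0 CPM per kb, followed by the end joining genes XRCC5 (125), XRCC6 (85) and PRKDC (83.2), which encode Ku80, Ku70 and DNA-PKcs. XRCC6 and PRKDC did not differ beyond the spread of their libraries. At the other end were RAD54B, a motor protein of strand exchange, at 1.27 CPM per kb and ATRIP, the partner of the ATR kinase, at 1.91. End joining therefore held both very abundant members and scarce ones, since LIG4 stood at 4.52 and XRCC4 at 5.78 CPM per kb.

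The first comparison addressed the effect of SUMOylation inhibition on these genes in the Dex-sensitive line. With TAK-981 in MM1S 38 of 48 members were called lower and 2 higher by edgeR's quasi-likelihood test (adjusted p under 0.05 over all genes tested), where 23.7% of all genes were called lower and 25.2% higher. The median log2 fold change of the members was -0.90, against 0.037 for all genes tested. All 14 homologous recombination genes and 9 of 11 Fanconi genes fell, with a median over these 25 of -1.13. Of the 8 end joining and mismatch repair genes 5 fell and 1 rose, with a median of -0.31. The separate medians were -1.41 for recombination, -0.94 for Fanconi, -1.16 for mismatch repair and -0.24 for end joining genes. The pooled value of -0.31 lay near that of end joining, but not through end joining alone, since PMS2 of mismatch repair was also near 0 (-0.05). The mismatch repair median is the value of MSH6. Each member's change, ordered by role, is plotted with its standard error.

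**Figure D1:**
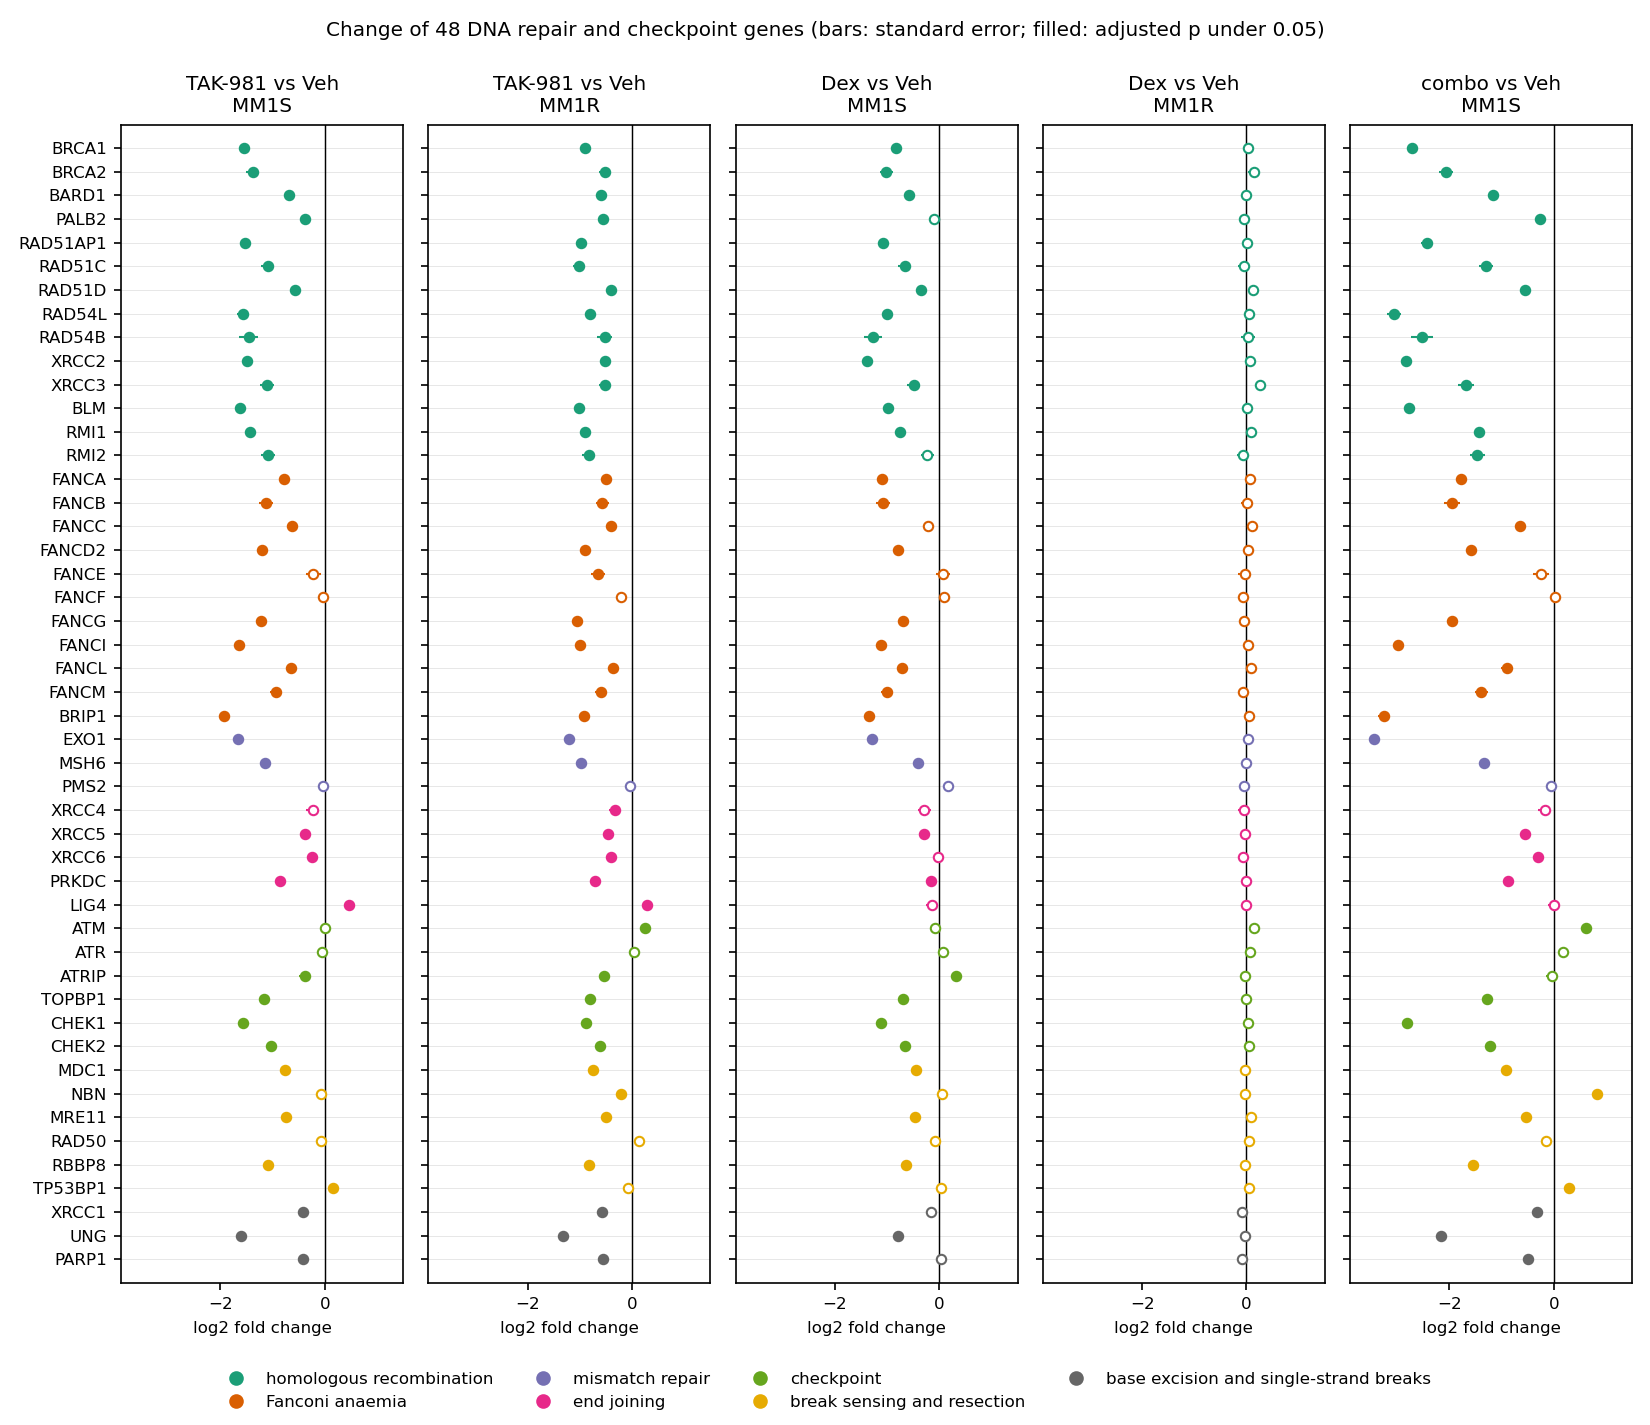
Log2 fold change (x axis) of the 48 members (y axis, ordered and coloured by role) for 5 comparisons with vehicle; points are edgeR estimates from 2 libraries per group, bars are standard errors, and filled points have an adjusted p under 0.05. With TAK-981 the recombination and Fanconi genes lie left of 0 in both lines, those called with Dex in MM1S also lie left of 0, and no point is filled for Dex in MM1R.

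BRCA1 (chr17:41196312-41322420 in hg19, the build of the count table), whose protein directs broken ends towards recombination, was the member with the smallest adjusted p. It stood at 112 and 107 CPM in the 2 Veh libraries and at 37.3 and 37.8 CPM with TAK-981 (log2 fold change -1.55, SE 0.059, adjusted p = 5.56e-13). Both treated libraries were far below both Veh libraries, at a fold of 0.342, and groups without overlap were a condition for naming it among the top members. BRCA2, a mediator of strand exchange, went from 48.8 and 45.8 to 19.9 and 16.4 CPM (log2 fold change -1.38, SE 0.123, adjusted p = 5.29e-08). The other recombination genes that fell by more than 1 on the log2 scale were RAD51AP1, RAD51C, RAD54L, RAD54B, XRCC2, XRCC3, BLM, RMI1 and RMI2. The helicase BLM, which dissolves recombination intermediates with RMI1 and RMI2, fell by 1.62, and PALB2, the bridge between BRCA1 and BRCA2, had the smallest change of the list (-0.39).

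Among the Fanconi genes FANCI (chr15:89787194-89860362), which forms the clamp that is ubiquitinated at crosslinks, went from 249 and 228 to 69.9 and 83 CPM (log2 fold change -1.64, SE 0.0776, adjusted p = 7.96e-12). Its partner FANCD2 went from 86 and 77.7 to 35.2 and 35.8 CPM (log2 fold change -1.21, SE 0.0733, adjusted p = 2.04e-10). FANCA, a scaffold of the core complex that ubiquitinates this clamp, changed less, from 75.3 and 78.4 to 41.4 and 48.1 CPM (log2 fold change -0.78, SE 0.07, adjusted p = 3.54e-08). In all 3 genes both treated libraries were below both Veh libraries, which for FANCI was a condition of its choice. The share of all genes whose libraries separate in this way was not counted. BRIP1, a helicase bound to BRCA1, had the most negative estimate of all members (-1.93), and the core complex genes FANCE and FANCF did not pass the test (-0.22 and -0.04).

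The mismatch repair genes did not move as one. EXO1 (chr1:242011493-242053241), the nuclease that removes the mismatched strand and also resects broken ends, went from 79.9 and 72.7 to 21.9 and 26 CPM (log2 fold change -1.67, SE 0.0823, adjusted p = 1.24e-11). MSH6 (chr2:48010221-48034092), which recognises base mismatches, went from 215 and 214 to 90.9 and 101 CPM (log2 fold change -1.16, SE 0.0723, adjusted p = 2.85e-10). PMS2 (chr7:6012870-6048737), an endonuclease of this pathway, stood at 26.3 and 24.4 CPM with Veh and at 25.2 and 23.9 CPM with TAK-981 (log2 fold change -0.05, SE 0.0895, adjusted p = 0.708), and its groups overlapped. PMS2 has near-identical copies elsewhere in the genome, so its count is uncertain. All 3 promoter stretches printed above hold an E2F-type word, which was the ground for choosing among each gene's annotated starts.

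Of the end joining genes PRKDC changed most, from 1119 and 1113 to 593 and 633 CPM (log2 fold change -0.87, SE 0.0541, adjusted p = 2.85e-10). XRCC5 went from 552 and 518 to 412 and 407 CPM (log2 fold change -0.39, SE 0.0581, adjusted p = 2.26e-05), and XRCC6 from 239.6 and 229.6 to 197 and 199.9 CPM (log2 fold change -0.24, SE 0.0541, adjusted p = 0.00111). These 3 genes of the DNA-PK holoenzyme were called lower, as were 23.7% of all genes, but the 2 Ku genes fell by less than 0.5 on the log2 scale. XRCC4, the scaffold of ligase IV, was not called (12.5 and 11.6 CPM with Veh, 10.6 and 9.88 CPM with TAK-981, log2 fold change -0.24, SE 0.123, adjusted p = 0.124). LIG4 (chr13:108859792-108870716) rose from 18.9 and 20.4 to 29.7 and 24.9 CPM (log2 fold change 0.47, SE 0.106, adjusted p = 0.00117), so within end joining the kinase fell while the ligase was higher.

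The checkpoint genes also split. CHEK1 (chr11:125495031-125546150), the kinase that holds cells with stalled forks out of mitosis, went from 90.2 and 82.8 to 28.9 and 29.1 CPM (log2 fold change -1.58, SE 0.0743, adjusted p = 7.58e-12). CHEK2, the kinase downstream of ATM, went from 25.9 and 24.6 to 11.7 and 13.1 CPM (log2 fold change -1.03, SE 0.0868, adjusted p = 1.47e-08), and TOPBP1, the activator of ATR, fell by 1.17 on the log2 scale. The apical kinases themselves were not called, with ATM at 221 and 227 CPM with Veh and 244 and 204 CPM with TAK-981 (adjusted p = 1) and ATR at 147 and 137 and 148 and 126 CPM (adjusted p = 0.694). For both apical kinases the 2 treated libraries lay on either side of the Veh libraries, whereas those of the effector kinases lay below them. For CHEK1 this was a condition for naming it among the top members.

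In break sensing and resection MDC1, the adaptor on phosphorylated H2AX, MRE11, the nuclease that starts resection, and RBBP8, which encodes the resection factor CtIP, fell by 0.76, 0.74 and 1.09 on the log2 scale. NBN and RAD50, the partners of MRE11, were not called (-0.07 and -0.07). TP53BP1, which opposes resection, went from 54.8 and 52.6 to 58 and 62.3 CPM (log2 fold change 0.16, SE 0.0624, adjusted p = 0.0375). The call did not hold in every setting, and the adjusted p was 0.0649 without MM1S Veh replicate 1, 0.186 without MM1S Veh replicate 2, 0.231 without MM1S TAK replicate 2, and reached 0.315 over the alternatives. UNG (chr12:109535399-109548798), the glycosylase that removes uracil from DNA, went from 78.2 and 74.5 to 23.8 and 26.1 CPM (log2 fold change -1.61, SE 0.0757, adjusted p = 7.11e-12). XRCC1, the scaffold of single-strand break repair, fell by 0.41, and PARP1 went from 872 and 872 to 608 and 701 CPM (log2 fold change -0.41, SE 0.0722, adjusted p = 0.00011).

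The levels of 10 members in every library are plotted by group.

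**Figure D2:**
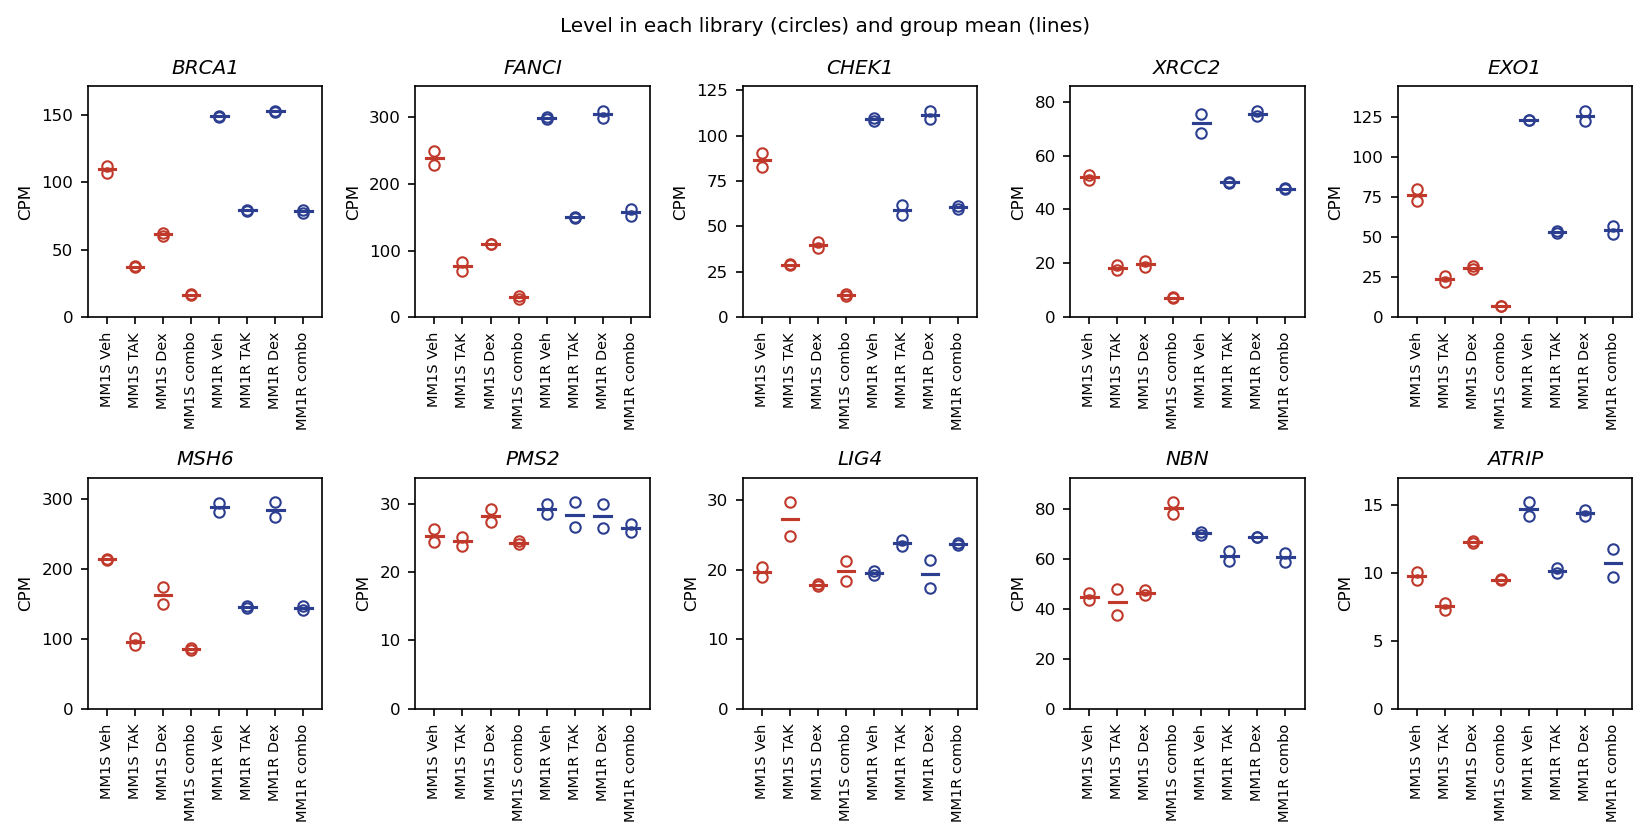
CPM (y axis, from 0, a separate scale for each gene) of 10 members in the 8 groups (x axis; MM1S red, MM1R blue); circles are the 2 libraries of a group and lines their mean. BRCA1, FANCI, CHEK1, XRCC2 and EXO1 are lowest in the MM1S combo libraries, PMS2 stays between 23.9 and 30.2 CPM in all 16 libraries, and NBN is highest in the MM1S combo libraries.

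The same question was asked in the Dex-resistant line. With TAK-981 in MM1R 41 of 48 members were called lower (27.6% of all genes) and 2 higher (25.8%), with a median log2 fold change of -0.57 against 0.0043 for all genes tested. All 14 homologous recombination genes and 10 of 11 Fanconi genes fell, with a median over the 25 of -0.60. Of the 8 end joining and mismatch repair genes 6 fell and 1 rose, with a median of -0.44. The medians of the 25 and of the 8 genes were closer together than in MM1S, a difference that was not tested. The separate medians were -0.70 for recombination, -0.60 for Fanconi, -0.98 for mismatch repair and -0.41 for end joining genes.

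UNG had the smallest adjusted p in MM1R, from 88.1 and 88.4 CPM with Veh to 35.6 and 34.5 CPM with TAK-981 (log2 fold change -1.33, SE 0.0725, adjusted p = 6.43e-11). BRCA1 went from 149.6 and 149 to 79 and 79.7 CPM (log2 fold change -0.91, SE 0.0553, adjusted p = 2.82e-10), and EXO1 from 123 and 123 to 53.6 and 52.9 CPM (log2 fold change -1.21, SE 0.0754, adjusted p = 3.91e-10). In these 3 genes the pairs of libraries lay close together and far from the other group. Groups that did not overlap were a condition for naming them among the top members. MSH6 went from 281 and 295 to 144 and 148 CPM (log2 fold change -0.98, SE 0.071, adjusted p = 2.58e-09), and PMS2 was again not called (log2 fold change -0.04, SE 0.0862, adjusted p = 0.712). BRCA2, FANCD2, FANCA, CHEK1 and CHEK2 fell by 0.52, 0.90, 0.50, 0.88 and 0.61 on the log2 scale.

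Among the end joining genes PRKDC again changed most. It went from 1576 and 1640.4 to 983 and 974 CPM (log2 fold change -0.72, SE 0.0538, adjusted p = 4.23e-09), XRCC5 and XRCC6 fell by 0.47 and 0.41 on the log2 scale, and PARP1 fell by 0.56. LIG4 was the member called higher in both lines, at 19.8 and 19.2 CPM with Veh and 23.4 and 24.3 CPM with TAK-981 in MM1R (log2 fold change 0.29, SE 0.105, adjusted p = 0.0265). With any 1 of its 4 libraries left out the adjusted p of LIG4 in MM1R lay between 0.0641 and 0.131. XRCC4 was called lower (log2 fold change -0.33, SE 0.119, adjusted p = 0.0277), and its adjusted p lay between 0.051 and 0.168 when any 1 of the 4 libraries was left out. ATM stood at 233 and 214 CPM with Veh and 270.0 and 265 CPM with TAK-981 (log2 fold change 0.26, SE 0.0982, adjusted p = 0.0369), with an adjusted p of 0.22 without MM1R Veh replicate 2, 0.132 without MM1R TAK replicate 1 and 0.0925 without MM1R TAK replicate 2. ATR was not called (log2 fold change 0.03, SE 0.091, adjusted p = 0.809).

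Across the 2 lines 38 members were called lower with TAK-981 in both, 1 was called higher in both, 4 were called in neither, 1 (TP53BP1) was called in MM1S only, 4 (FANCE, XRCC4, ATM and NBN) in MM1R only, and none was called in opposite directions. These joint counts were not made over all genes, of which 49% were called in MM1S and 53.4% in MM1R. The 2 responses rest on separate libraries, and across the 48 members they had a Pearson r of 0.844 (0.750 across all 14215 genes), a description over genes, which are not independent replicates. For 35 of 48 members the estimate was negative in MM1S and less so, or positive, in MM1R. The same was not counted over all genes. In MM1S the estimate was negative for 45 of the 48 members and for 6609 of all 14215 genes. The difference of the responses was tested as an interaction, and 13 members were called higher, meaning a smaller fall in MM1R, and 0 lower, where 3.19% of all genes were called higher and 0.978% lower.

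**Figure D3:**
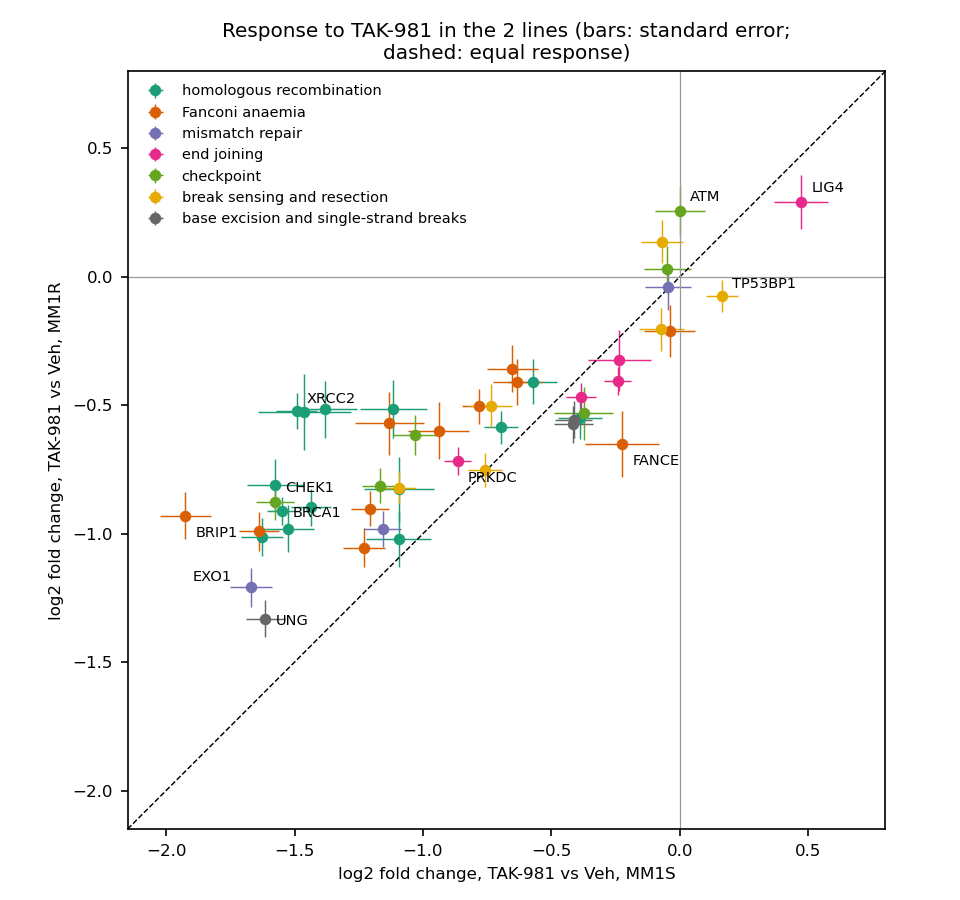
Log2 fold change with TAK-981 against Veh in MM1S (x axis) and MM1R (y axis) for the 48 members, coloured by role; bars are standard errors from edgeR with 2 libraries per group and the dashed line marks equal responses. Most members lie above the dashed line in the lower left, LIG4 lies in the upper right, and FANCE lies below the line.

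Of the 13, 8 were homologous recombination genes (BRCA1, BRCA2, RAD51AP1, RAD54L, RAD54B, XRCC2, BLM, RMI1), 2 were Fanconi genes (FANCI, BRIP1), and the others were EXO1, TOPBP1 and CHEK1. None of the 5 end joining genes was called in this test. The end joining and mismatch repair genes had a median difference of -0.04, against 0.34 for the recombination and Fanconi genes. It was 0.18 for mismatch repair and -0.09 for end joining taken alone. XRCC2 (chr7:152343587-152373250), which acts in strand exchange, went from 52.6 and 51.1 to 17.6 and 19.2 CPM in MM1S and from 68.5 and 75.4 to 50.4 and 49.8 CPM in MM1R, a difference of 0.97 (SE 0.106, adjusted p = 4.76e-05). For BRIP1 the levels were 61.3 and 59.8 against 17 and 14.9 CPM in MM1S and 62.2 and 64.3 against 33.4 and 33 CPM in MM1R, a difference of 0.995 (SE 0.136, adjusted p = 0.000434). Both genes were called lower in each line, with the treated libraries nearer to Veh in MM1R. The differences for BRCA1 and CHEK1 were 0.64 (SE 0.0805, adjusted p = 0.000212) and 0.70 (SE 0.101, adjusted p = 0.000678). Without MM1R TAK replicate 1 the count of members called higher was 7, and without MM1S TAK replicate 1 there were 2 members called lower.

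Before treatment the lines already differed. In the Veh libraries 32 members were higher in MM1R than in MM1S (25.6% of all genes) and 0 were lower (22.6%), with a median of 0.33 against 0.0068 for all genes. All 3 base excision and single-strand break genes and 12 of 14 homologous recombination genes were among them, with 3 of 5 end joining and 2 of 3 mismatch repair genes. PRKDC stood at 1119 and 1113 CPM in MM1S and 1576 and 1640.4 CPM in MM1R (log2 fold change 0.53, SE 0.0537, adjusted p = 3.32e-07). EXO1 stood at 79.9 and 72.7 and 123 and 123 CPM (log2 fold change 0.69, SE 0.0734, adjusted p = 5.73e-07), and RBBP8 at 118 and 109.8 and 158 and 163 CPM (log2 fold change 0.49, SE 0.0602, adjusted p = 3.27e-06). BRCA1 was higher in MM1R by 0.44 (SE 0.0543, adjusted p = 3.11e-06). XRCC4, LIG4 and PMS2 were not called. The 26 replication and mitosis markers moved with this difference, with 24 called higher in untreated MM1R, 0 lower and a median of 0.52, and their part in it was not tested.

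Dex alone also lowered many members in MM1S. There 31 members were called lower (21.5% of all genes) and 1 higher (20.8%), with a median of -0.53 against 0.011. Homologous recombination had 12 of 14 genes called lower and the Fanconi genes 8 of 11, with a median over the 25 of -0.80. Of the 8 end joining and mismatch repair genes 4 fell and none rose, with a median of -0.22. The separate medians were -0.79 for recombination, -0.80 for Fanconi, -0.40 for mismatch repair and -0.16 for end joining genes. The comparison shares its Veh libraries with that of TAK-981 in MM1S.

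XRCC2 went from 52.6 and 51.1 CPM with Veh to 20.9 and 18.8 CPM with Dex (log2 fold change -1.39, SE 0.0783, adjusted p = 1.08e-10). EXO1 went to 30 and 32.1 CPM (log2 fold change -1.30, SE 0.08, adjusted p = 3.38e-10), and CHEK1 to 41.7 and 37.9 CPM (log2 fold change -1.12, SE 0.072, adjusted p = 5.6e-10). These levels were below those of both Veh libraries in every case, which the rule for naming the top members required. FANCA went from 75.3 and 78.4 to 35.1 and 36.7 CPM (log2 fold change -1.10, SE 0.0713, adjusted p = 6.2e-10) and had stood at 41.4 and 48.1 CPM with TAK-981. BRCA1, BRCA2, FANCD2, CHEK2 and UNG fell by 0.83, 1.01, 0.80, 0.65 and 0.78 on the log2 scale.

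PRKDC, of end joining, changed little with Dex. It was at 992 and 1004 CPM (log2 fold change -0.16, SE 0.0536, adjusted p = 0.0211), and leaving out any 1 of its 4 libraries gave an adjusted p between 0.0574 and 0.0908. XRCC5 fell by 0.30, XRCC6, XRCC4 and LIG4 were not called, and MSH6 fell by 0.40, less than EXO1. XRCC4 was called lower without MM1S Dex replicate 2 (log2 fold change -0.42, adjusted p = 0.0359) and with libraries scaled by library size only (adjusted p = 0.0499). ATRIP was the member called higher, from 10.1 and 9.43 CPM with Veh to 12.2 and 12.3 CPM with Dex (log2 fold change 0.33, SE 0.108, adjusted p = 0.02). Its adjusted p was 0.115 without MM1S Veh replicate 2, 0.0521 without MM1S Dex replicate 1 and 0.0698 without MM1S Dex replicate 2. ATM, ATR, PARP1 and PMS2 did not pass the test.

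In MM1R no member was called with Dex, and 0% of all genes were called by edgeR. At an unadjusted p under 0.05 there were 1 member (XRCC3) and 395 genes, and DESeq2 called 0 members and 0 genes. BRCA1 stood at 149.6 and 149 CPM with Veh and 153 and 152 CPM with Dex, and XRCC2 at 68.5 and 75.4 and 76.6 and 74.6 CPM. The Dex responses of the lines differed for 30 members, all with the higher value in MM1R (15% of all genes), and 0 in the other direction (13.1%). Those 30 included 20 of the 25 recombination and Fanconi genes and 3 of the 8 end joining and mismatch repair genes. The 4 differences with the smallest adjusted p were 1.46 (SE 0.104, adjusted p = 8.24e-09) for XRCC2, 1.33 (SE 0.107, adjusted p = 3.95e-08) for EXO1, 1.18 (SE 0.0969, adjusted p = 5.1e-08) for FANCA and 1.16 (SE 0.098, adjusted p = 7.03e-08) for CHEK1.

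The combo asked what each agent added to the other. Against Veh in MM1S 37 members were lower (29.5% of all genes) and 3 higher (30.8%), with a median of -1.25 against 0.037 for all genes tested. The 25 recombination and Fanconi genes had a median of -1.68, with 23 called lower. The 8 end joining and mismatch repair genes had one of -0.43, with 5 called lower. The separate medians were -1.87 for recombination, -1.59 for Fanconi, -1.335 for mismatch repair and -0.31 for end joining genes. EXO1 reached 6.81 and 7.2 CPM, a fold of 0.0920 of the Veh level (log2 fold change -3.44, SE 0.0995, adjusted p = 1.87e-15). BRCA1 reached 16.2 and 17.3 CPM and CHEK1 11.6 and 12.9 CPM, while PMS2 stood at 24.1 and 24.5 CPM, inside the range of the other groups.

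Against Dex alone the combo lowered 33 members (25.4% of all genes) and raised 3 (22.2%). BRCA1 went from 62.7 and 60.7 CPM with Dex to 16.2 and 17.3 CPM with the combo (log2 fold change -1.88, SE 0.0669, adjusted p = 2.55e-13), FANCI from 109 and 109 to 28.1 and 32 CPM (log2 fold change -1.86, SE 0.084, adjusted p = 4.53e-12), and EXO1 and CHEK1 fell by 2.15 and 1.70 on the log2 scale. Against TAK-981 alone it lowered 22 members (20.6%) and raised 3 (14.5%), namely ATM, ATRIP and NBN. The 4 members with the smallest adjusted p were again BRCA1, EXO1, FANCI and CHEK1, with log2 fold changes of -1.17, -1.77, -1.34 and -1.24. Without MM1S TAK replicate 1 the count raised against TAK-981 was 5.

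NBN, which carries MRE11 and RAD50 to breaks and recruits ATM, was one of the members called higher with the combo in MM1S. It stood at 46.5 and 43.5 CPM with Veh, 48 and 37.7 CPM with TAK-981, 47.6 and 45.6 CPM with Dex and 82.8 and 78.1 CPM with the combo (log2 fold change 0.79, SE 0.0861, adjusted p = 5.93e-07 against Dex). Both combo libraries were above all 6 other MM1S libraries, which overlapped one another. ATM stood at 232 and 192 CPM with Dex and 369 and 321 CPM with the combo (log2 fold change 0.70, SE 0.0988, adjusted p = 2e-05), above all other MM1S libraries. TP53BP1 stood at 55.4 and 54.9 and 65.8 and 66 CPM (log2 fold change 0.26, SE 0.0625, adjusted p = 0.00242). For NBN, ATM and TP53BP1, combo libraries that did not overlap those of Dex were a condition for naming them here. In MM1R the combo left NBN at 62.5 and 58.9 CPM, below its Veh libraries at 71 and 69.8 CPM.

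The interaction of TAK-981 and Dex in MM1S, the combo change minus the sum of the 2 single changes on the log2 scale, was called higher for 8 members (5.47% of all genes) and lower for 2 (9.48%). NBN had the smallest adjusted p, at 0.86 (SE 0.123, adjusted p = 0.000145), followed by RMI1 at 0.77 (SE 0.112, adjusted p = 0.00016), TOPBP1 at 0.59 (SE 0.0972, adjusted p = 0.000534) and MRE11 at 0.68 (SE 0.119, adjusted p = 0.000871). RMI1 stood at 42.6 and 43.3 CPM with Veh, 16.4 and 15.3 CPM with TAK-981, 24.8 and 26 CPM with Dex and 15.7 and 16.2 CPM with the combo, and the combo libraries overlapped those of TAK-981 alone. TOPBP1 stood at 104 and 88.6 CPM with TAK-981 and 90.9 and 88.2 CPM with the combo, and MRE11 at 63 and 53.1 and 71.5 and 63 CPM. BRCA1 and EXO1 were the 2 members called below the sum, at -0.33 (SE 0.0896, adjusted p = 0.018) and -0.48 (SE 0.138, adjusted p = 0.0266). Without MM1S Veh replicate 1 the count of higher calls was 5, and the count of lower calls ran from 0 (without MM1S Veh replicate 2 or MM1S combo replicate 1) through 1 (without MM1S TAK replicate 2, MM1S Dex replicate 2 or MM1S combo replicate 2) to 4 (without MM1S TAK replicate 1). Of all genes called in this test 36.6% were higher, and 53.2% when libraries were scaled by library size only, which called 13 members higher and 0 lower.

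In MM1R the counts for the combo were close to those for TAK-981 alone. Against Veh 41 members were lower (26.7% of all genes) and 1 higher (24.8%), and against Dex 40 were lower (25.3%) and 1 higher (23.1%), LIG4 both times. Neither LIG4 call held without every library, since the count called higher against Veh was 0 with any 1 of the 4 libraries left out, and against Dex 0 without MM1R Dex replicate 2, MM1R combo replicate 1 or MM1R combo replicate 2. Against TAK-981 alone no member was called (0% of all genes), with 0 members and 214 genes at an unadjusted p under 0.05 and 0 of either by DESeq2. The interaction in MM1R was called for no member (0% of all genes), with 0 members and 400 genes at an unadjusted p under 0.05 and 0 of either by DESeq2.

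Seen library by library, the median distance of the 25 recombination and Fanconi genes from the 8 end joining and mismatch repair genes, each taken from the line's Veh mean, was -0.81 and -0.85 with TAK-981 in MM1S, -0.53 and -0.64 with Dex and -1.27 and -1.14 with the combo. In MM1R it was -0.19 and -0.21 with TAK-981, 0.10 and -0.00047 with Dex, and -0.09 and -0.13 with the combo. The 4 Veh libraries lay within 0.02 of 0, but the 2 of a line mirror each other because their own mean was subtracted. Their closeness to 0 is therefore not a noise level for the treated libraries. The 2 Dex libraries of MM1R, where no gene was called, differed by about as much as the MM1R combo values lay from 0. No p is given for these medians, because the members were chosen together and the groups hold 2 libraries each.

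**Figure D4:**
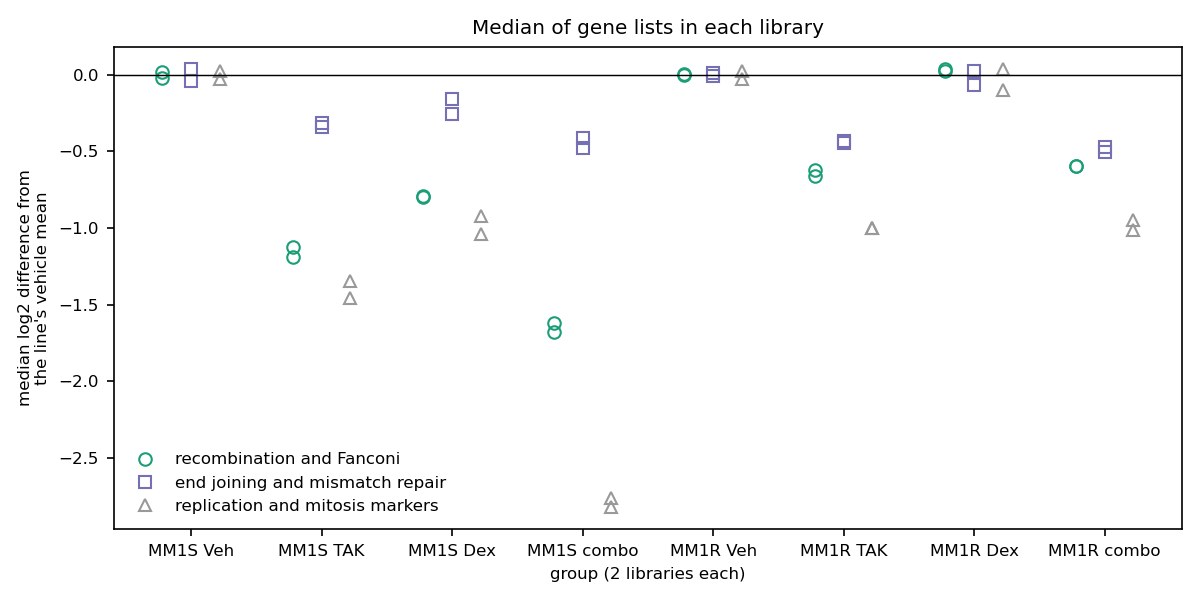
Median log2 difference from the line's Veh mean (y axis) in each of the 2 libraries of the 8 groups (x axis) for the 25 recombination and Fanconi genes (circles), the 8 end joining and mismatch repair genes (squares) and 26 replication and mitosis markers (triangles). The circles lie below the squares in the TAK-981, Dex and combo libraries of MM1S, the 2 lists lie closer together in MM1R, and the triangles lie lowest in each group that was lowered.

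Replication and mitosis markers moved with the members in most comparisons, and against them in the interaction in MM1S. All 26 of them (among them MCM4, MCM6 and TOP2A) were called lower with TAK-981 in MM1S, with TAK-981 in MM1R and with Dex in MM1S, with medians of -1.46, -0.98 and -0.97, and the median reached -2.82 with the combo in MM1S. MCM4, a subunit of the replicative helicase, had log2 fold changes of -1.97, -1.46 and -0.96, MCM6 of -1.85, -1.40 and -0.82, and TOP2A of -1.43, -0.87 and -0.97 in these 3 comparisons. With Dex in MM1R the marker medians of the 2 libraries were -0.10 and 0.04. The TAK-981 response was called higher in MM1R than in MM1S for 10 of the 26 and lower for 0 (median difference 0.43), and the Dex response for 26 (median difference 0.94). In the interaction of TAK-981 and Dex in MM1S 11 markers were called lower and 1 higher, with a median of -0.40, where the members had 2 lower and 8 higher and a median of 0.15. The part of cell cycling in the change of the members was not tested.

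Other genes of the same pathways were counted for context. With TAK-981 in MM1S, where 23.7% of all genes were called lower and 25.2% higher, the other mismatch repair and gap-filling genes had 13 of 16 called lower and 1 higher (median -1.13). PCNA, the sliding clamp, and POLD3, a polymerase delta subunit, fell by 1.34 and 1.47, while POLD4 rose by 0.53. The other checkpoint genes had 11 of 16 lower and 0 higher, with CLSPN, the adaptor that presents CHEK1 to ATR, WEE1, the inhibitory kinase of CDK1, and CDC25A, the opposing phosphatase, at -1.56, -1.40 and -1.45. Of 35 other recombination genes tested 20 were lower and 3 higher, with FIGNL1, PSMC3IP and POLQ, the polymerase of microhomology-mediated joining, at -1.49, -1.26 and -1.13, and HELQ and RECQL5 at 0.28 and 0.30.

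Of 17 other Fanconi genes 9 were lower and 4 higher, led by ATAD5 (-1.56), the E2 enzyme UBE2T (-1.20) and RFWD3 (-0.78) among the lower, and by ERCC1 (0.43) and WDR48 (0.27) among the higher. The other end joining genes had 6 of 17 lower and 3 higher, with a median of -0.14, near the shares of all genes. H2AFX, PAXIP1 and RNF168 were at -0.89, -0.85 and -0.46, and the gap-filling polymerases POLL and POLM of end joining rose by 0.42 and 0.59. Of 19 other base excision genes 9 were lower and 1 higher, with FEN1, PARP2 and NEIL3 at -1.55, -1.30 and -1.23 and NEIL1 at 0.74. Nucleotide excision genes, which act throughout the cycle, had 2 of 21 lower (RAD23B at -0.35 and GTF2H2 at -0.81) and 4 higher, led by the damage sensor XPC (0.72) and UVSSA (0.70).

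Some members lie over other genes, and the sources used here do not say whether reads were counted by strand. BRCA1 overlaps NBR2, XRCC3 overlaps KLC1, FANCA overlaps ZNF276, FANCI overlaps POLG, FANCL overlaps VRK2 and RMI2 overlaps SOCS1 on the opposite strand, so reads of these pairs could not be told apart if strand was not used. KLC1, with up to 2162 reads in a library against at most 365 for XRCC3, is the pair where this could matter most. ATRIP overlaps TREX1 on the same strand, and TREX1 had at most 18 reads in a library.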

How the data were processed

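Total RNA of MM1S and MM1R cells was profiled by RNA-seq in 16 libraries, 2 in each of 8 groups taken from the labels. The authors deposited whole-number read counts per gene in 1 table, together with gene positions and lengths. The submitters' processing notes name bcl2fastq 2.18.0.12, STAR 2.6.0, HTSeq 0.6.0, edgeR 3.28.1 and hg19. Whether reads were counted by strand is not given in the sources used here. All 16 count columns were matched to samples by title, and the libraries held 15707587 to 24796539 counts.

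Counts were filtered (filterByExpr), scaled by TMM and fitted over all 8 groups in edgeR 4.0.16 (R 4.3.3, limma 3.58.1, robust quasi-likelihood F test, 8 residual degrees of freedom), with Benjamini-Hochberg adjustment over the 14215 genes tested and a threshold of 0.05. Log2 fold changes were those of the fit. A prior count of 2 was used only for the log2 CPM values behind group overlap and the medians per library. Each library was counted as 1 replicate. Duplicates differed by more than counting noise (chi-square per degree of freedom 2.08 to 21.2), which does not show that they came from separate cultures. The ratio was 21.2 and 19.2 in the TAK-981 and Dex groups of MM1S and at most 9.14 elsewhere. The shared spread does not allow for this difference between groups. Alternatives were RLE scaling, library size only, no filter, a replicate block, DESeq2 1.42.0, only the groups compared, and leaving out each library.

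The members, role lists, pathway lists and tests were chosen with earlier results of these data known, so no list is independent evidence. Every member was named. Values per library were given for the up to 4 lower and 4 higher members with the smallest adjusted p and groups that did not overlap (TAK-981 in either line, Dex in MM1S, combo against Dex in MM1S), for the 4 members with the smallest adjusted p in the interactions, combo against TAK-981 and Veh MM1R against Veh MM1S, and for well-known members of each role. Up to 3 lower and 2 higher genes of each pathway list were named in the same way. Some items that this rule or the marker lists would name are not reported here. Other members given with values, such as RAD54L or PALB2, were chosen after their values were seen. Promoter sequences came from RefSeq (GRCh38.p14), and their coordinates are not those of the count table.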

Additional observations from a re-analysis of the deposited data

Results flagged for a closer look

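The response to TAK-981 differed between MM1R and MM1S for 13 members by edgeR's quasi-likelihood test of the interaction, all with the higher value in MM1R. Of all genes 3.19% were called higher and 0.978% lower in this test. The differences were 0.97 for XRCC2, 0.995 for BRIP1, 0.70 for CHEK1 and 0.64 for BRCA1 on the log2 scale. In each of these 4 genes the mean untreated level was higher in MM1R, but for BRIP1 only slightly (60.5 CPM in MM1S and 63.25 CPM in MM1R). The treated libraries of MM1R lay above those of MM1S in all 4.

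The response to Dex differed between the lines for 30 members, again all with the higher value in MM1R (15% of all genes higher, 13.1% lower). The differences were 1.46 for XRCC2, 1.33 for EXO1, 1.18 for FANCA and 1.16 for CHEK1, and none of these 4 genes was called with Dex in MM1R. NR3C1 stood at 16.7 to 20.5 CPM in MM1R and at 239 to 357 CPM in MM1S, and its part in these differences was not tested. With 2 libraries per group no test for a single outlying library was made.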

How the results depend on the processing

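The counts of members called lower with TAK-981 in either line, with Dex in MM1S and with the combo stayed within 1.5 times the reported count under RLE scaling, library size only, no filter, the replicate block, DESeq2 and only the groups compared, and no named member with a call reversed. Asking also for a 1-unit change on the log2 scale in either direction left, lower and higher, 23 and 0 members with TAK-981 in MM1S, 5 and 0 in MM1R, 11 and 0 with Dex in MM1S, 3 and 0 with the combo in MM1R against Veh and against Dex, 10 and 0 with the combo in MM1S against TAK-981 and 15 and 0 against Dex. It left 0 higher with the combo against Veh in MM1S, 0 higher in untreated MM1R, 0 with a higher TAK-981 response and 11 with a higher Dex response in MM1R, and 0 in either direction for the interaction in MM1S. The share of all genes past this stricter threshold was not counted, so these counts cannot be set against one.

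Small counts of higher calls moved most. With TAK-981 in MM1S the count was 1 under RLE scaling, library size only, no filter, DESeq2 or only the groups compared, and in MM1R it was 1 under library size only or DESeq2. With Dex in MM1S it was 0 under DESeq2 or only the groups compared. With the combo in MM1R against Veh it was 2 under no filter or only the groups compared and 0 under DESeq2, and against Dex 0 under library size only or DESeq2. With the combo against TAK-981 in MM1S library size only gave 5. In untreated MM1R library size only, or only the groups compared, gave 1 member lower. For the interaction in MM1S library size only gave 0 lower and 13 higher, and only the groups compared gave 0 lower and 5 higher.

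The replicate numbers are not tied to a culture or batch in the labels, and deviations of same-numbered libraries correlated at -0.0134 to 0.263 within a line, so they share only a number. With the replicate block 22 members had a higher TAK-981 response in MM1R and 1 had a lower Dex response. There 5 were higher with the combo against TAK-981 in MM1S, and 2 with the combo against Veh in MM1R. Calls rose over all genes too, with 1114 of 14215 having a higher and 947 a lower TAK-981 response, against 453 and 139 as reported. The other 3 tests called 2521, 2609 and 3954 genes in these directions.

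Median log2 fold changes moved by more than the spread of the libraries under library size only, to -0.95 for all members, -1.18 for recombination and Fanconi genes and -0.36 for end joining and mismatch repair genes with TAK-981 in MM1S, and to -0.83 for recombination and Fanconi genes with Dex in MM1S. With only the groups compared the median of all members with TAK-981 in MM1S was -0.93. That setting called 2356 genes higher and 2826 lower in this comparison, against 3586 and 3374 as reported. Moving EXO1, TOPBP1 and RBBP8 to homologous recombination gave -0.24 for end joining and mismatch repair with TAK-981 in MM1S and -0.41 in MM1R, and -0.73 for recombination and Fanconi in MM1R.

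Leaving out each library in turn gave 37 to 40 members lower and 1 to 2 higher with TAK-981 in MM1S, 37 to 39 and 0 to 1 in MM1R, 29 to 31 and 0 to 1 with Dex in MM1S, 36 to 38 and 3 to 3 with the combo against Veh in MM1S, 39 to 40 and 0 to 0 in MM1R, 19 to 22 and 2 to 5 with the combo against TAK-981 and 32 to 34 and 3 to 4 against Dex in MM1S, and 38 to 40 and 0 to 1 against Dex in MM1R. It gave 25 to 28 members higher in untreated MM1R, 7 to 17 with a higher and 0 to 2 with a lower TAK-981 response in MM1R, 29 to 30 with a higher Dex response, and 5 to 10 higher and 0 to 4 lower for the interaction in MM1S. Where a group is left with 1 library, that library is assumed to vary like the other groups. The medians of all members, recombination and Fanconi, and end joining and mismatch repair then lay at -0.94 to -0.85, -1.19 to -1.14 and -0.36 to -0.27 with TAK-981 in MM1S, -0.59 to -0.56, -0.66 to -0.62 and -0.45 to -0.43 in MM1R, -0.57 to -0.55, -0.87 to -0.77 and -0.25 to -0.16 with Dex in MM1S, and -0.62 to -0.58, -1.14 to -0.85 and -0.30 to -0.25 with the combo against Dex.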
